A study of Mus musculus with 36 samples.

Results

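Sele, Selp, Icam1, Vcam1, F3, Thbd, Vwf, Plau and Plaur were followed in mouse lung after tube-shaped titanium dioxide nanoparticles had been instilled into the trachea. The 9 genes encode adhesion receptors of the vessel wall and proteins of blood clotting and of its dissolution. They were taken by symbol, as genes of these functions, through the RefSeq accession of each array probe. They make 9 of the 36799 gene names on the arrays, and 8 of the 9 were among the 23255 genes bright enough to be tested. Sele was not.

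The animals were female C57BL/6 mice of 5 to 7 weeks with no genotype given other than the strain. Each mouse received 1 intratracheal instillation of 0, 18, 54 or 162 µg of Tube TiO2NPs in 40 µl, and the lung was taken at day 1 or day 28. The 0 µg animals served as controls, and what liquid they received is not given in the sources used here. The day 1 animals were 4 controls, 3 at 18 µg, 3 at 54 µg and 4 at 162 µg. The day 28 animals were 3 controls and 4 at every dose. RNA came from random sections of lung, and whether a lower value reflects fewer cells of a type or less RNA per cell cannot be told apart in such bulk samples. Lung RNA (Cy5) was hybridised against a universal reference (Cy3) made from RNA of 11 mouse lines, and each level below is the log2 ratio of lung over reference for 1 probe. A level of 1 means that lung held double the reference signal, and levels of different genes are not set against each other, because each probe has its own reference.

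Leukocytes leave the blood in steps. P-selectin (Selp) and E-selectin (Sele) on activated endothelium catch rolling cells, and ICAM-1 (Icam1) and VCAM-1 (Vcam1) bind leukocyte integrins and hold the cells firmly. Clotting starts when tissue factor (F3) meets factor VIIa, thrombomodulin (Thbd) on the endothelium turns thrombin towards the anticoagulant protein C, and von Willebrand factor (Vwf) tethers platelets. Urokinase (Plau), held at the cell surface by its receptor (Plaur), turns plasminogen into plasmin, which dissolves fibrin. Sele, Icam1, Vcam1 and F3 are textbook targets of NF-kB, whereas Thbd is a gene that inflammatory signals can lower. In lung, Icam1 is also made by alveolar epithelium and F3 mostly by cells outside the vessel lining.

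Promoter sequences of some members were searched for a motif of the NF-kB type. RefSeq promoter windows (GRCm38.p6, plus strand of each gene) were at hand for 5 of the 9 genes, namely Sele, Selp, Icam1, F3 and Plaur. The NF-kB type motif GGNNNTTCC was searched on both strands in the 250 bases before each annotated start, and 15.7% of all 32851 windows held it. It was found in 4 of the 5 members and not in Plaur. The 160 bases before the start are printed for the 3 members whose motif lies farther upstream and for Plaur, with the motif in capitals. A capital stretch is a match of letters, not a measured binding site.
Icam1, chr9:21015780-21015939: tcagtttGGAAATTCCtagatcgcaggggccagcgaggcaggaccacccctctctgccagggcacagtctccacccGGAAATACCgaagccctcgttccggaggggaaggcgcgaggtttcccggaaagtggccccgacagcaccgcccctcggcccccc
Sele, chr1:164048074-164048233: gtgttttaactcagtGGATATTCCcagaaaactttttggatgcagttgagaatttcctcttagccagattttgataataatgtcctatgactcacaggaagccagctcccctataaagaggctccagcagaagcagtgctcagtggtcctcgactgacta
F3, chr3:121723377-121723536: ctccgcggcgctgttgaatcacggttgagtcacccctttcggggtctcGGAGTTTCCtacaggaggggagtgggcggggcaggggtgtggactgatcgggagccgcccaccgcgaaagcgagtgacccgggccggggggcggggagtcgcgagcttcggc
Plaur, chr7:24462323-24462482: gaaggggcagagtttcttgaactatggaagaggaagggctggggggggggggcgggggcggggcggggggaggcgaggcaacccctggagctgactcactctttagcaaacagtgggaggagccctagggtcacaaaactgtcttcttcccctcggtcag

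Icam1 held 2 matches, at bases -153 to -145 on both strands and at -84 to -76 on the minus strand, counted from the start. Sele held 1 at -145 to -137 and F3 held 1 at -112 to -104. The match of Selp lies at -14 to -6 on the minus strand. Beside these windows, the values below are as follows. Sele was too dim to measure. The day 1 means of Icam1 and Plaur were higher at every dose than in controls. Those of F3 were lower at every dose, and those of Selp were lower at 18 µg and higher at 54 and 162 µg. None of these differences passed the test.

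Of the array facts that touch these genes, 1 stands out. Skeletal muscle transcripts were far brighter on 12 of the 36 arrays than on the rest: the mean log2 Cy5 intensity over the skeletal muscle markers was 10.72 to 14.93 on these muscle arrays and 6.88 to 8.20 on the other 24. Every day 1 control, 4 of 4, carried such an array. Among dosed mice of day 1 the carriers were replicate 3 of the 18 µg group, replicate 2 of the 54 µg group and replicate 3 of the 162 µg group. Among mice of day 28 they were replicate 1 at 18 µg and 3 of 4 mice at 54 µg (all but replicate 4), with 0 of 3 controls and 0 of 4 mice at 162 µg. The endothelium that carries most members was well represented: 20 of 20 endothelial markers passed the filter, and their mean log2 ratio per mouse was 3.21 to 4.30. The arrays of 1 further mouse carry titles of day 1 and a time label of day 28, and it was kept as replicate 1 of the 162 µg group of day 28.

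**Figure D1:**
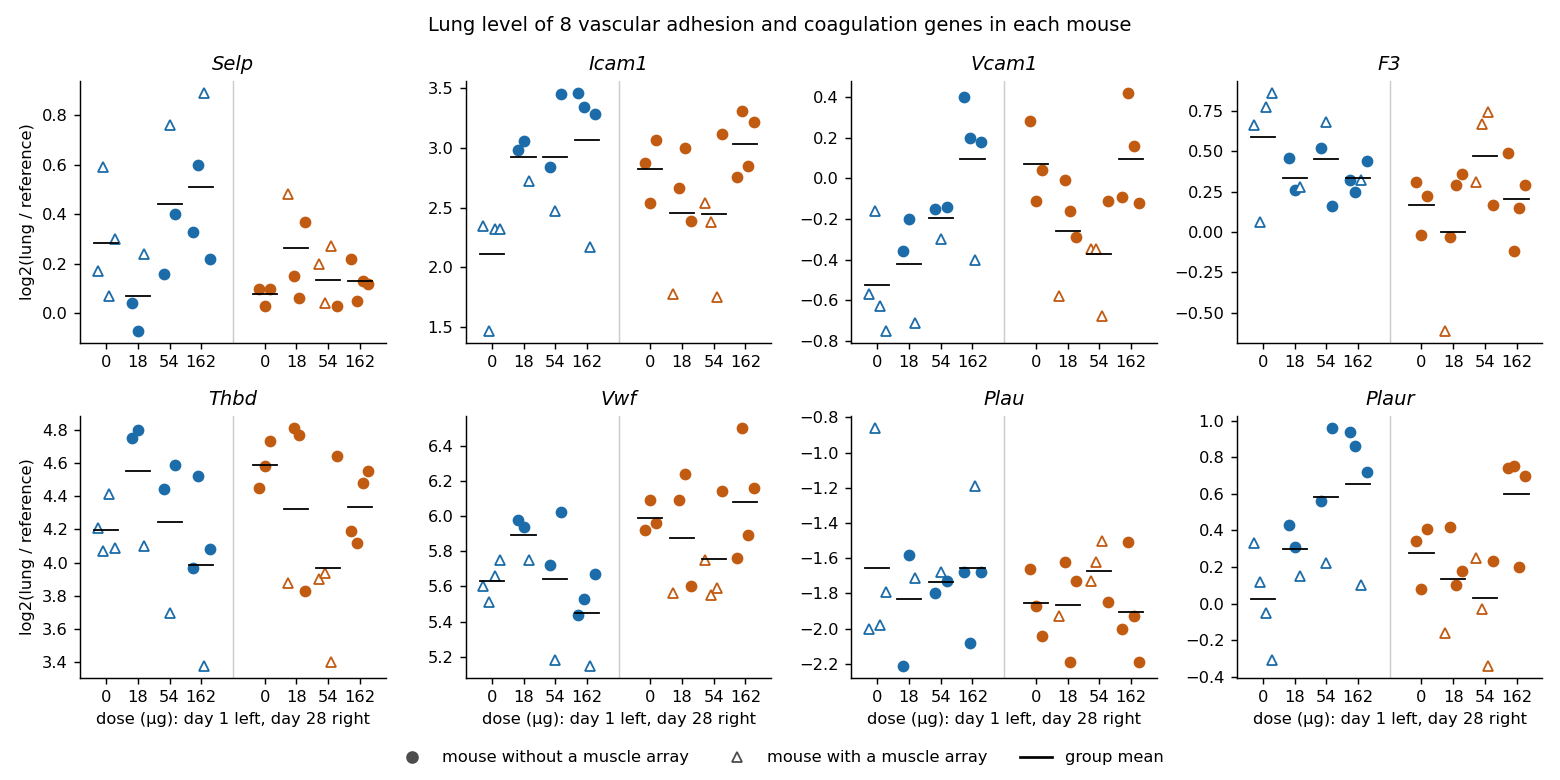
Level of each of the 8 tested genes in every mouse, as the log2 ratio of lung over reference (vertical axis, a different range in each panel), against dose in µg (horizontal axis, day 1 in blue on the left, day 28 in orange on the right). Each point is 1 mouse, open triangles are mice with a muscle array and black bars are group means. For Icam1 at day 1 the 4 control mice sit between 1.47 and 2.35, and the 162 µg mouse with a muscle array, at 2.17, is the only one of its group inside that range.

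No member passed the test at any dose or day. With limma over 29 mice and Benjamini-Hochberg adjustment over all genes, 0 of 8 members had an adjusted p under 0.05 in each of the 12 comparisons made. Against the control group of the same day, the share of all tested genes called was 0% for 18 µg, 0.0516% for 54 µg and 1.69% for 162 µg at day 1. At day 28 it was 0% for 18 µg, 0% for 54 µg and 0.628% for 162 µg. At 162 µg and day 1 these were 349 genes up and 45 down (168 up and 1 down when arrays were centred on their median in place of loess). At an unadjusted p under 0.05 the count of members at day 1 was 1 of 8 at 18 µg, 2 of 8 at 54 µg and 3 of 8 at 162 µg, where 4.09%, 7.6% and 13% of all genes lay. At day 28 it was 0 of 8, 2 of 8 and 0 of 8, where 4.33%, 6.15% and 4.79% of all genes lay. The 3 members at 162 µg and day 1 were Icam1, Vcam1 and Plaur, all higher than in controls. The control mice of a day are shared by its 3 dose comparisons. The labels do not say how mice were drawn or housed by group. The p-values set a group difference against the spread between mice within groups, for these samples only.

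**Figure D2:**
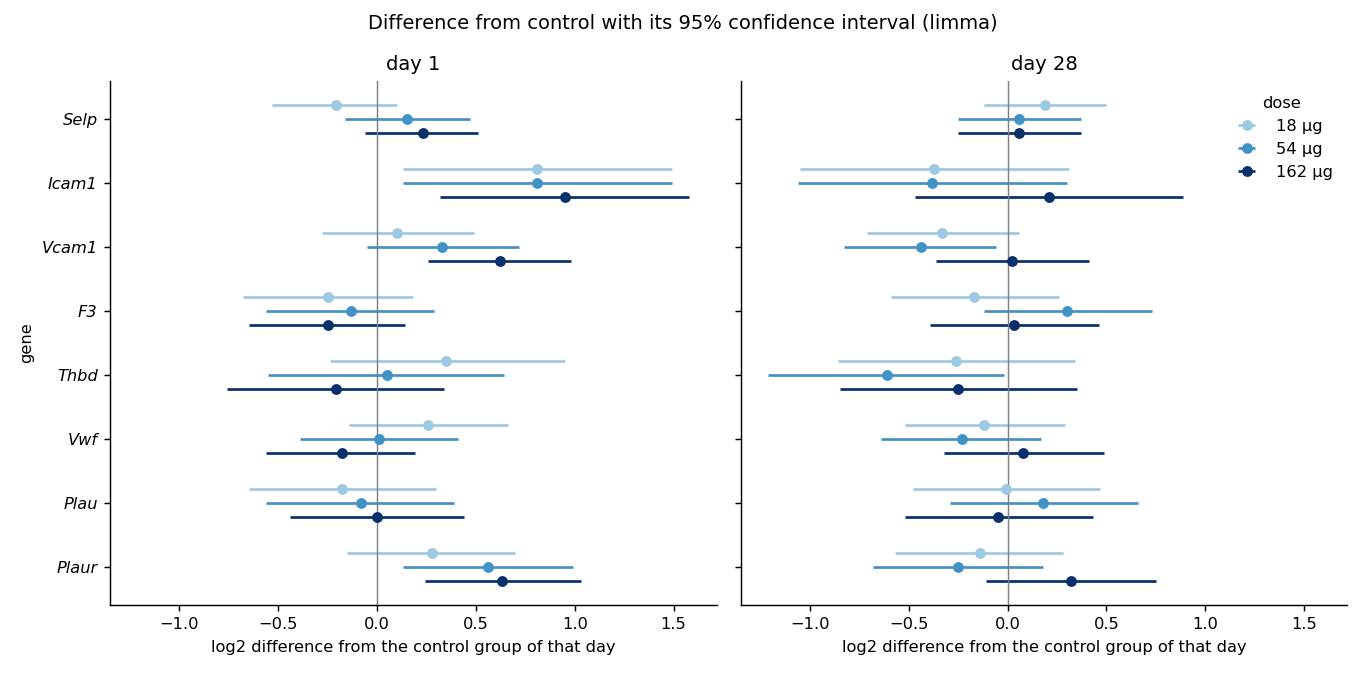
Difference of each dose group from the control group of its day, on the log2 scale (horizontal axis), for the 8 tested genes (vertical axis), at day 1 (left) and day 28 (right). Points are limma estimates, bars are 95% confidence intervals before adjustment and shades are doses. At day 1 the intervals of Icam1 lie above 0 at all 3 doses, from 0.13 to 1.49 at 18 µg, from 0.13 to 1.49 at 54 µg and from 0.32 to 1.58 at 162 µg, yet none passed after adjustment over all genes.

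Of the selectins, Sele gave no usable signal. Its single probe was well above background on 0 of 36 arrays, in Cy5 and in Cy3 alike, so these arrays bound its level only from above. With the filter on dim probes lifted, its difference at 162 µg and day 1 was 0.10 on the log2 scale (limma, adjusted p = 0.821), a value between signals not well above background. Selp was measured by 1 probe printed on 10 spots and was well above background on every array.

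At day 1, Selp stood at 0.17, 0.59, 0.07 and 0.30 in the 4 control mice. It was 0.33, 0.60, 0.89 and 0.22 at 162 µg, where the highest mouse is the one with a muscle array. The ranges overlapped, and the mean went from 0.28 ± 0.23 (SD, n = 4) to 0.51 ± 0.30 (SD, n = 4), a log2 difference of 0.23 (SE 0.14, 95% interval -0.06 to 0.51, limma, adjusted p = 0.528). The mean was 0.07 ± 0.16 (SD, n = 3) at 18 µg and 0.44 ± 0.30 (SD, n = 3) at 54 µg. The order of the day 1 means was thus 18 µg, control, 54 µg and 162 µg, and the ranges of neighbouring groups overlapped. Without the muscle arrays the difference at 162 µg was 0.40 (adjusted p = 0.208), and with muscle and squamous epithelium scores as covariates 0.39 (adjusted p = 0.0776). At day 28, Selp lay between 0.03 and 0.10 in the 3 control mice and at 0.22, 0.05, 0.13 and 0.12 at 162 µg, a log2 difference of 0.06 (SE 0.15, adjusted p = 1.000). Its highest day 28 mouse, at 0.48, was the 18 µg mouse with a muscle array.

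Icam1, the receptor for the leukocyte integrins LFA-1 and Mac-1, had the largest difference of the 8 genes at day 1. It read 2.35, 1.47, 2.32 and 2.32 in the 4 control mice. At 18 µg it was 2.98, 3.06 and 2.72, and at 54 µg it was 2.84, 2.47 and 3.45. All 3 mice at 18 µg and all 3 at 54 µg were above every control mouse, as they were in 3.7% and 5.31% of all tested genes. At 162 µg the values were 3.46, 3.34, 2.17 and 3.28. There 3 of 4 mice were above every control, and replicate 3, with a muscle array, lay inside the control range.

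The Icam1 mean was 2.11 ± 0.43 (SD, n = 4) in day 1 controls and 3.06 ± 0.60 (SD, n = 4) at 162 µg, a log2 difference of 0.95 or 1.93-fold (SE 0.30, 95% interval 0.32 to 1.58, adjusted p = 0.129 in limma). At 18 and 54 µg the difference was 0.81 each time (SE 0.33, adjusted p = 0.912 and 0.610). The 3 doses did not form steps: 162 µg exceeded 54 µg by 0.14 (SE 0.33, adjusted p = 1.000), in a comparison where 0.0043% of all genes and 0 of 8 members were called, and where 0 of 8 members and 4.7% of all genes had an unadjusted p under 0.05. Leaving out replicate 3 of the 162 µg group gave 1.25 (adjusted p = 0.0147), which passes the test, and the range over all single mice left out was 0.74 to 1.25. The refit without replicate 3 sets 4 controls that all have a muscle array against 3 dosed mice without one. Dose and muscle transcripts cannot be told apart in it. Leaving out the muscle arrays keeps 1 control mouse and 3 mice at 162 µg, and the difference was then 0.78 (adjusted p = 0.168). With scores of muscle and squamous epithelium as covariates it was 0.52 (adjusted p = 0.228). Within each of the 5 slides it ran from -0.16 to 1.87 and was positive in 4 of 5. Slides 1 and 5 hold the same mice, replicate 1 of both groups, so the slides are not separate pairs of mice.

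At day 28 the Icam1 levels of dosed and control lungs overlapped. Controls stood at 2.87, 2.54 and 3.07. The 18 µg mice stood at 1.78, 2.66, 3.00 and 2.39, and the 54 µg mice at 2.54, 2.38, 1.75 and 3.12. At 162 µg they were 2.76, 3.31, 2.85 and 3.22. The lowest 18 µg mouse and the 3 lower 54 µg mice are those with a muscle array, and the difference at 162 µg was 0.21 (SE 0.33, 95% interval -0.47 to 0.89, adjusted p = 1.000).

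Vcam1, the receptor for the integrin VLA-4, had the smallest adjusted p of the members. In day 1 controls it stood at -0.57, -0.16, -0.63 and -0.75, and at 162 µg at 0.40, 0.20, -0.40 and 0.18. Again 3 of 4 dosed mice were above all controls and replicate 3 was not. The mean went from -0.53 ± 0.25 (SD, n = 4) to 0.09 ± 0.35 (SD, n = 4), a log2 difference of 0.62 or 1.54-fold (SE 0.17, 95% interval 0.26 to 0.98, adjusted p = 0.0708 in limma). The values were -0.36, -0.20 and -0.71 at 18 µg and -0.15, -0.30 and -0.14 at 54 µg. The order of the means was control, 18 µg, 54 µg and 162 µg, with log2 differences from control of 0.10 (SE 0.19, adjusted p = 0.949), 0.33 (SE 0.19, adjusted p = 0.704) and 0.62, while the step from 54 to 162 µg was 0.29 (SE 0.19, adjusted p = 1.000). Neither 18 µg from control nor 162 µg from 54 µg differed past the threshold, and 54 µg was not tested against 18 µg.

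A second, dimmer Vcam1 probe gave 0.54 at 162 µg (SE 0.16, unadjusted p = 0.00264), and over the 29 mice the probes correlated at r = 0.66. Within the 5 slides the Vcam1 difference was positive in 5 of 5, from 0.23 to 1.23, with replicate 1 of both groups on slides 1 and 5 alike. Averaging both probes gave 0.58 with an adjusted p of 0.0281, and leaving out replicate 3 at 162 µg gave 0.79 with 0.00718. As for Icam1, the refit without replicate 3 sets controls that all have a muscle array against dosed mice without one. Leaving out control replicate 2, the highest Vcam1 control, gave 0.74 with 0.0315. Without the muscle arrays it was 0.41 (adjusted p = 0.311), and 0.43 (adjusted p = 0.114) with both tissue scores as covariates. At day 28 the control values were 0.28, -0.11 and 0.04, and the 162 µg values -0.09, 0.42, 0.16 and -0.12, a log2 difference of 0.02 (SE 0.19, adjusted p = 1.000). The 54 µg mice of day 28 stood at -0.35, -0.35, -0.68 and -0.11, a log2 difference of -0.44 (SE 0.19, unadjusted p = 0.0262, adjusted p = 0.749), and the 3 lower ones are those with a muscle array. Its value was -0.17 once the muscle arrays were left out. The second probe gave -0.18 (unadjusted p = 0.299) for that comparison and 0.22 (unadjusted p = 0.216) for 162 µg at day 28.

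Tissue factor, which starts the extrinsic pathway of clotting, had a lower mean at each day 1 dose than in controls, by amounts within the spread. F3 stood at 0.66, 0.06, 0.77 and 0.86 in day 1 controls and at 0.32, 0.25, 0.32 and 0.44 at 162 µg. The dosed mice lay within the wide control range, and the log2 difference was -0.25 (SE 0.19, 95% interval -0.65 to 0.14, limma, adjusted p = 0.633). The mean was 0.33 ± 0.11 (SD, n = 3) at 18 µg and 0.45 ± 0.27 (SD, n = 3) at 54 µg. A second F3 probe, well above background on 34 of 36 arrays, gave -0.02 at 162 µg, and it differed from the main probe in sign at 18 and 54 µg of day 1, at 0.15 and 0.14 against -0.25 and -0.13, and at 54 and 162 µg of day 28, at -0.15 and -0.08 against 0.30 and 0.03. At day 28 the means were 0.17 ± 0.17 (SD, n = 3) in controls and 0.00 ± 0.44, 0.47 ± 0.28 and 0.20 ± 0.26 (SD, n = 4 each) at 18, 54 and 162 µg. The lowest of all 29 mice, at -0.61, was the 18 µg mouse of day 28 with a muscle array.

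Thrombomodulin, the endothelial brake on thrombin, differed in spread between groups. The SD was 0.15 in day 1 controls, which all have a muscle array, and 0.14 in day 28 controls. It was 0.39 to 0.54 in the 5 dosed groups that hold a mouse or more with a muscle array, and 0.21 at 162 µg of day 28. In the 18 µg group of day 28, at 0.54, the lowest mouse, at 3.83, has no muscle array. The mouse with one read 3.88. Thbd stood at 4.21, 4.07, 4.41 and 4.09 in day 1 controls and at 3.97, 4.52, 3.38 and 4.08 at 162 µg. The groups overlapped, and the log2 difference was -0.21 (SE 0.27, 95% interval -0.76 to 0.34, adjusted p = 0.809 in limma). At 18 and 54 µg it was 0.35 (SE 0.29) and 0.05 (SE 0.29), with adjusted p-values of 0.912 and 0.971. Without the muscle arrays, which holds only the higher array of 1 control mouse, the difference at 162 µg was -0.60 (adjusted p = 0.346), and -0.58 (adjusted p = 0.0879) with both tissue scores as covariates. At day 28, Thbd stood at 4.45, 4.58 and 4.73 in controls and at 3.90, 3.94, 3.40 and 4.64 at 54 µg. That log2 difference of -0.61 (SE 0.29, unadjusted p = 0.0447, adjusted p = 0.749) turned to 0.06 without the muscle arrays, which the 3 lower mice carry. At 162 µg the day 28 difference was -0.25 (SE 0.29, adjusted p = 1.000).

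Von Willebrand factor lay 55.1-fold above the cell line reference on average over the mice, and Thbd 19.1-fold, each for its own probe. Vwf stood at 5.51 to 5.75 in the 4 day 1 controls, at 5.98, 5.94 and 5.75 at 18 µg and at 5.44, 5.53, 5.15 and 5.67 at 162 µg. The 18 µg mice were just above all controls, as they were in 3.7% of all tested genes. The lowest of them and the highest control both round to 5.75. The 162 µg mice overlapped with the controls. The log2 difference was 0.26 (SE 0.20, adjusted p = 0.912) at 18 µg, 0.01 (SE 0.20, adjusted p = 0.990) at 54 µg and -0.18 (SE 0.18, 95% interval -0.56 to 0.19, limma, adjusted p = 0.735) at 162 µg. The 162 µg value was -0.39 (adjusted p = 0.477) without the muscle arrays and -0.40 (adjusted p = 0.168) with both tissue scores as covariates. At day 28 the means were 5.99 ± 0.09 (SD, n = 3) in controls and 5.87 ± 0.34, 5.76 ± 0.27 and 6.08 ± 0.32 (SD, n = 4 each) at 18, 54 and 162 µg. The highest mouse of all was replicate 2 of the 162 µg group of day 28, at 6.50, and its signals stood apart. Its log2 Cy3 reference signal was 7.35, where the other mice lay from 8.78 to 9.53, and its log2 Cy5 lung signal of 13.84 was the lowest of all. Without that mouse the 162 µg mean of day 28 was 5.94 ± 0.20 (SD, n = 3) and the difference from controls -0.06 (SE 0.20, adjusted p = 1.000), so its sign rests on 1 mouse. Against controls of day 28, the differences of Vwf were -0.12, -0.23 and 0.08 (SE 0.20 each).

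Plau, the urokinase enzyme, was below the reference, with a mean fold of 0.293 of lung over reference, and was well above background in Cy5 on 27 of 36 arrays, so part of its values are near the limit of measurement. Its mean was -1.66 ± 0.54 (SD, n = 4) in day 1 controls and -1.66 ± 0.37 (SD, n = 4) at 162 µg, a log2 difference of 0.00 (SE 0.21, 95% interval -0.44 to 0.44, limma, adjusted p = 0.998). Leaving out the muscle arrays moved it to 0.55 (adjusted p = 0.345), and to 0.48 and 0.60 at 18 and 54 µg (adjusted p = 0.999 and 0.685), against the 1 control array left, while both tissue scores as covariates gave 0.13 at 162 µg. At day 28 the difference at 162 µg was -0.05 (SE 0.23, 95% interval -0.52 to 0.43, adjusted p = 1.000). The highest Plau levels were -0.86 in control replicate 2 and -1.19 in 162 µg replicate 3 of day 1, both mice with a muscle array.

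Plaur, the receptor, which myeloid cells carry in abundance, had a higher mean at each day 1 dose than in controls, none past the test. It stood at 0.33, 0.12, -0.05 and -0.31 in controls and at 0.43, 0.31 and 0.15 at 18 µg. At 54 µg it was 0.56, 0.22 and 0.96, and at 162 µg 0.94, 0.86, 0.10 and 0.72. The same 162 µg mouse, replicate 3, was the low one, inside the control range. The mean went from 0.02 ± 0.27 (SD, n = 4) to 0.65 ± 0.38 (SD, n = 4), a log2 difference of 0.63 or 1.55-fold (SE 0.19, 95% interval 0.24 to 1.03, adjusted p = 0.104 in limma). At 18 and 54 µg the differences were 0.28 (SE 0.21, adjusted p = 0.912) and 0.56 (SE 0.21, adjusted p = 0.566).

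Of Icam1, Vcam1 and Plaur at 162 µg, it was Plaur whose sign turned when the muscle arrays were left out, to -0.22 (adjusted p = 0.669), and Plaur went to -0.69 and -0.29 at 18 and 54 µg. The single control value left there is the array of control replicate 1 without muscle transcripts, which read 1.06, whereas the same mouse read -0.40 on its muscle array. With both tissue scores as covariates the difference at 162 µg was 0.41 (adjusted p = 0.153 in limma). Within slides it was positive in 5 of 5, from 0.14 to 1.08, with replicate 1 of both groups on slides 1 and 5 alike. Leaving out 162 µg replicate 3 gave 0.82 (adjusted p = 0.0118), again with a muscle array in every control mouse and in no dosed mouse. At day 28, Plaur stood at 0.34, 0.08 and 0.41 in controls and at 0.74, 0.75, 0.20 and 0.70 at 162 µg. There 3 of 4 mice were above all controls, and the log2 difference was 0.32 (SE 0.21, 95% interval -0.11 to 0.75, adjusted p = 1.000). The mouse at 0.75, replicate 2, had a log2 Cy3 reference signal of 9.37, where the other mice lay from 10.67 to 11.02. Its log2 Cy5 lung signal of 10.12 was the lowest of all, as with Vwf in this mouse.

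Because Plaur and the partners of ICAM-1 are carried by leukocytes, the leukocyte markers are given beside these values. The mean log2 ratio per mouse over 14 of 16 neutrophil markers was 1.48 to 2.20 in day 1 controls and 2.13 to 2.39 at 162 µg. Over 15 of 16 monocyte and macrophage markers it was 1.90 to 2.51 and 2.25 to 2.36, and over 20 endothelial markers 3.55 to 3.75 and 3.21 to 4.00. The part of these cells in the member levels was not tested.

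The 2 higher doses were also compared with each other at day 28, where 1.01% of all genes and 0 of 8 members were called, and 2 of 8 members had an unadjusted p under 0.05 against 12.5% of all genes. Plaur was 0.57 higher at 162 than at 54 µg (SE 0.19, adjusted p = 0.229 in limma) and Vcam1 0.46 higher (SE 0.17, adjusted p = 0.281). In both, 4 of 4 mice were above the mean of the 54 µg group, as they also were for Icam1, Thbd and Vwf. Of the 54 µg mice 3 of 4 have a muscle array and of the 162 µg mice 0 of 4. Without the muscle arrays, which leaves 1 mouse at 54 µg, the differences were 0.37 and 0.20.

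Whether the response differed between the days was tested as the day 28 difference minus the day 1 difference. No member was called at 18, 54 or 162 µg, where 0%, 0% and 0.0258% of all genes were. Unadjusted p-values under 0.05 came from 1, 3 and 1 of 8 members (6.68%, 10.2% and 3.87% of all genes). For Icam1 the difference between days was -1.18 (SE 0.47, adjusted p = 0.692) at 18 µg, -1.19 (SE 0.47, adjusted p = 0.489) at 54 µg and -0.74 (SE 0.45, adjusted p = 1.000) at 162 µg in limma. For Vcam1 it was -0.43, -0.77 and -0.60 (SE 0.26, 0.26 and 0.25), and for Plaur -0.42, -0.81 and -0.31 (SE 0.29, 0.29 and 0.28). All 9 of these values are negative, and they share the same 2 control groups. These 3 genes are given because they were higher at day 1. That day 1 difference is subtracted here, so their negative signs are not separate support. Over all 8 members 5, 6 and 6 values were negative at 18, 54 and 162 µg, and 3, 2 and 2 were positive. With the muscle arrays left out, Plaur was positive at all 3 doses, at 0.64, 0.25 and 0.54 (18, 54 and 162 µg). Icam1 was then -0.58, -0.26 and -0.57, and Vcam1 -0.10, -0.19 and -0.39. All of these rest on the 1 control array of day 1 that is left, and those at 54 µg also on 1 mouse of day 28. Between the control groups 0 of 8 members and 0% of all genes were called, and Vcam1 and Icam1 had the smallest p of the members: from day 1 to day 28 controls Vcam1 was 0.60 higher (SE 0.19, unadjusted p = 0.00386, adjusted p = 0.777) and Icam1 0.72 higher (SE 0.33, unadjusted p = 0.0398, adjusted p = 0.777). These 2 were the members with an unadjusted p under 0.05, against 5% of all genes. Icam1, Vcam1, Thbd and Vwf were higher in all 3 day 28 controls than in any day 1 control, as were 6.45% of all genes. All 4 day 1 controls have a muscle array and none of the day 28 controls has one. With the muscle arrays left out, the control differences were 0.22 for Vcam1, 0.24 for Icam1 and -0.78 for Plaur, where Plaur had been 0.26. The day 1 side is then the array of control replicate 1 without muscle transcripts, where Plaur read 1.06. The same mouse read -0.40 on its muscle array.

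**Figure D3:**
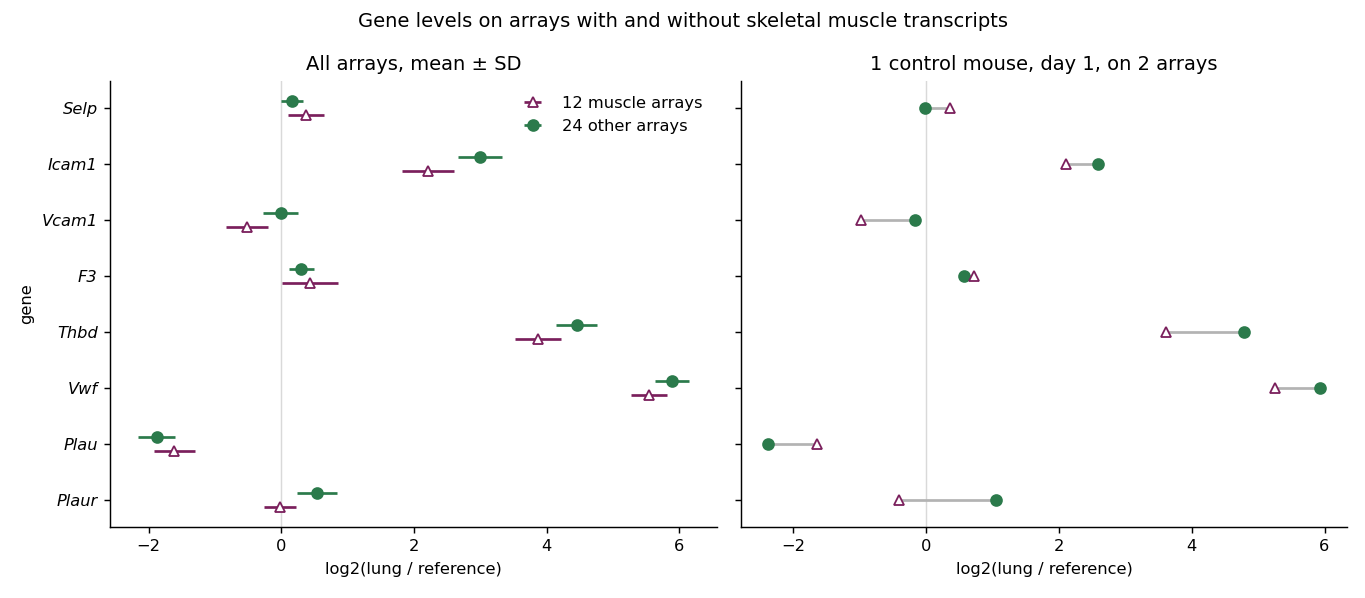
Level of the 8 tested genes (vertical axis) as the log2 ratio of lung over reference (horizontal axis) on arrays with and without skeletal muscle transcripts. Left: mean and SD over the 12 muscle arrays (open triangles) and the 24 others (filled circles), all doses and days together. Right: the day 1 control mouse, replicate 1, that was measured once on each kind of array, where Plaur read -0.40 with muscle transcripts and 1.06 without.

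Members differed between the kinds of array by up to 0.77 on the log2 scale, where the largest dose difference was 0.95. Averaged over 12 muscle arrays and 24 others, Icam1 was 2.21 ± 0.39 against 2.99 ± 0.33 (SD), a difference of -0.77, and Thbd 3.87 ± 0.35 against 4.45 ± 0.31, a difference of -0.59. Plaur, Vcam1 and Vwf were lower on muscle arrays by -0.56, -0.51 and -0.35, whereas Plau, Selp and F3 were higher by 0.27, 0.21 and 0.13. These pool doses and days. Taken within the 6 groups that hold both kinds of array, the differences were -0.72 for Icam1, -0.73 for Thbd, -0.55 for Plaur, -0.41 for Vcam1 and Vwf, 0.32 for Plau, 0.34 for Selp and -0.05 for F3.

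Of the 7 mice measured on 2 arrays, day 1 control replicate 1 was the mouse with 1 array of each kind. Thbd read 3.62 with muscle transcripts and 4.79 without, Vcam1 -0.98 and -0.16, Vwf 5.26 and 5.93, and Icam1 2.11 and 2.59. These run the same way as over all arrays, in 1 mouse and with no test. The median gap between the arrays of 1 mouse over all 7 mice was 0.47 for Icam1, 0.53 for Plau, 0.30 for Vcam1, 0.21 for Selp, 0.19 for Thbd, 0.18 for Vwf, 0.15 for F3 and 0.10 for Plaur. The labels do not say whether repeat arrays came from 1 RNA extract.

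**Figure D4:**
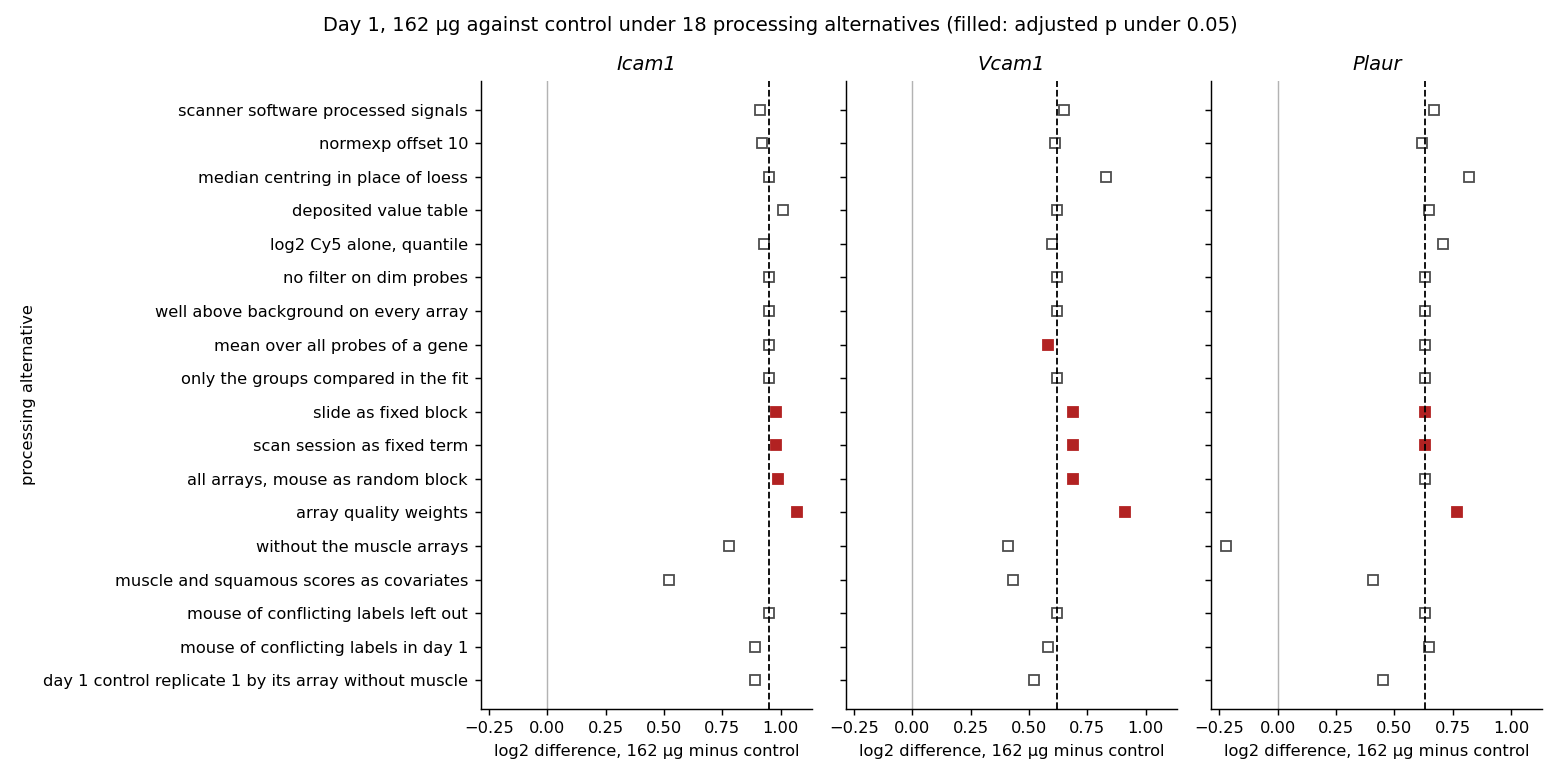
Difference between 162 µg and control at day 1 for Icam1, Vcam1 and Plaur on the log2 scale (horizontal axis) under 18 other ways of processing the data (vertical axis). The dashed line is the value reported and filled squares had an adjusted p under 0.05. Icam1 ranged from 0.52 to 1.07 and Vcam1 from 0.41 to 0.91, while Plaur ranged from -0.22 to 0.82 with 17 of 18 values above 0.

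Under these other ways of processing, the direction of Icam1 and of Vcam1 held at 162 µg and day 1, and the side of the threshold did not. Icam1 passed in 4 of 18, Vcam1 in 5 and Plaur in 3. The calls came from the fits to 36 single arrays (slide or scan session as a term, or the mouse as a random block) and from array quality weights, and for Vcam1 also from the mean over its probes. The single-array fits and the weights also called more of all genes, 728 to 2168 up and 106 to 1115 down. The reported fit called 349 up and 45 down. At day 1 and 54 µg the Icam1 difference ranged from 0.40 to 1.04 over the 18, with 0 calls, and that of Vcam1 from 0.01 to 0.69 with 0 calls.

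The wider pathways were followed through 5 gene lists. Among genes that feed back on NF-kB, 3 of 14 tested rose at 162 µg and day 1 and 0 fell, with a list median of 0.34 against 0.01 over all genes, 1.69% of which were called either way. Tnfaip3, whose product A20 shuts off NF-kB signalling, went from -0.30 ± 0.19 to 0.62 ± 0.27 (SD, n = 4 each) and so rose 1.89-fold (log2 difference 0.92, SE 0.14, adjusted p = 0.000407 in limma). Birc3, an inhibitor of apoptosis that acts in the same pathway, rose 1.57-fold (adjusted p = 0.0432), and Relb, an NF-kB subunit, rose 1.52-fold (adjusted p = 0.0384). Every 162 µg mouse was above the control mean for all 3. At 18 and 54 µg of day 1 and at 18, 54 and 162 µg of day 28, 0 of the 14 were called. The list median was 0.17 and 0.42 at 18 and 54 µg of day 1, so it was highest at 54 µg. At day 28 it was -0.07, -0.1 and 0.27 at 18, 54 and 162 µg.

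Among 29 tested coagulation and anticoagulant genes, 2 rose and 0 fell at 162 µg and day 1, with a list median of 0.10. F10, the factor X that tissue factor and factor VIIa activate, stood at 2.25, 2.24, 2.29 and 2.09 in control mice and at 3.51, 3.57, 3.10 and 3.71 at 162 µg. The 162 µg mouse with a muscle array was the lowest of its group, and the rise was 2.38-fold (log2 difference 1.25, SE 0.23, adjusted p = 0.00329 in limma). Serpina10, the protein Z-dependent inhibitor of factor Xa, rose 1.40-fold (adjusted p = 0.0378). F7, which encodes the partner of tissue factor, was 0.55 higher (SE 0.21, adjusted p = 0.233), and Procr and Tfpi, the protein C receptor and the tissue factor pathway inhibitor, were 0.12 and 0.27 higher, with adjusted p-values of 0.906 and 0.534. Neither gene is a member, and F3, Thbd and Vwf did not pass the same test.

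Among 27 leukocyte adhesion partners and other adhesion receptors 1 rose and 0 fell at 162 µg and day 1, with a median of 0.20. It was Itgax, the CD11c integrin chain of macrophages and dendritic cells, at 1.60-fold (adjusted p = 0.0265). Itgb2, the common chain of the ICAM-1 binding integrins, was 0.35 higher (adjusted p = 0.445), and Selplg, the P-selectin ligand, 0.39 higher (adjusted p = 0.445). Of 16 fibrinolysis and plasminogen activation genes 0 were called, with a median of 0.07. Plat, the tissue-type activator of plasminogen, was 0.05 higher (adjusted p = 0.926). Of 12 endothelial flow-responsive regulators 0 were called, with a median of -0.06, and Klf2, which promotes Thbd transcription, differed by -0.10 (SE 0.39, adjusted p = 0.946). The genes of these 5 lists that did not pass the test at 162 µg and day 1, and those named for other comparisons or settings, were chosen after their values were seen.

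The list calls also moved with the muscle arrays. When these were left out, at 162 µg and day 1, the counts were 2 of 27 adhesion partners (Gcnt1 and Vcan), 1 of 29 coagulation genes (Procr) and 2 of 14 NF-kB genes (Bcl3 and Birc3) up, with 0 down, where 2.03% of all genes were called, so that Birc3 was the only gene called with and without them. Procr, at 0.12 with all arrays, was 0.83 without the muscle arrays. At day 1 the fit without them keeps 3 mice at 162 µg and 1 control mouse, on a single array. Its counts and p-values for that comparison thus rest on 1 control array. The median of the flow-responsive regulators was then -0.49, against 0.04 over all genes. F10 then differed by 1.13 (SE 0.33, adjusted p = 0.0938), Tnfaip3 by 0.64 (adjusted p = 0.128), Itgax by 0.44 (adjusted p = 0.316), Serpina10 by 0.63 (adjusted p = 0.114), Relb by 0.35 (adjusted p = 0.377) and Birc3 by 0.66 (adjusted p = 0.0383). With both tissue scores as covariates, F10 differed by 1.29 (adjusted p = 0.00376), Tnfaip3 by 0.77 (adjusted p = 0.00128), Itgax by 0.61 (adjusted p = 0.0402) and Serpina10 by 0.48 (adjusted p = 0.0389), while Relb at 0.43 (adjusted p = 0.0867) and Birc3 at 0.43 (adjusted p = 0.0953) missed the threshold. That fit called 2.57% of all genes, and among list genes it also called Procr (0.54, adjusted p = 0.0349) and, lower at 162 µg, the flow-responsive Esm1 (-1.34, adjusted p = 0.0124), which was -0.92 (adjusted p = 0.234) without covariates. At day 28, 162 µg against 54 µg called 3 of 14 NF-kB genes, Tnfaip3, Birc3 and Traf1, and 1 of 27 adhesion partners, Itgax. All 4 were higher at 162 µg, and 1.01% of all genes were called there. Without the muscle arrays, which leaves 1 mouse at 54 µg, these 4 differed by 0.37, 0.39, 0.29 and 0.44. In the dose-against-control comparisons other than 162 µg at day 1, 0 genes of the 5 lists were called with all arrays and no covariate. For 162 µg at day 28, leaving out the muscle arrays called Birc3 (0.59, adjusted p = 0.00551) and F7 (0.84, adjusted p = 0.0450), beside 1.01% of all genes. The tissue scores as covariates called Birc3 (0.59, adjusted p = 0.0293), Tnfaip3 (0.59, adjusted p = 0.0181) and Tnip1 (0.44, adjusted p = 0.0481) there, beside 0.937% of all genes. All of these were higher at 162 µg.

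**Figure D5:**
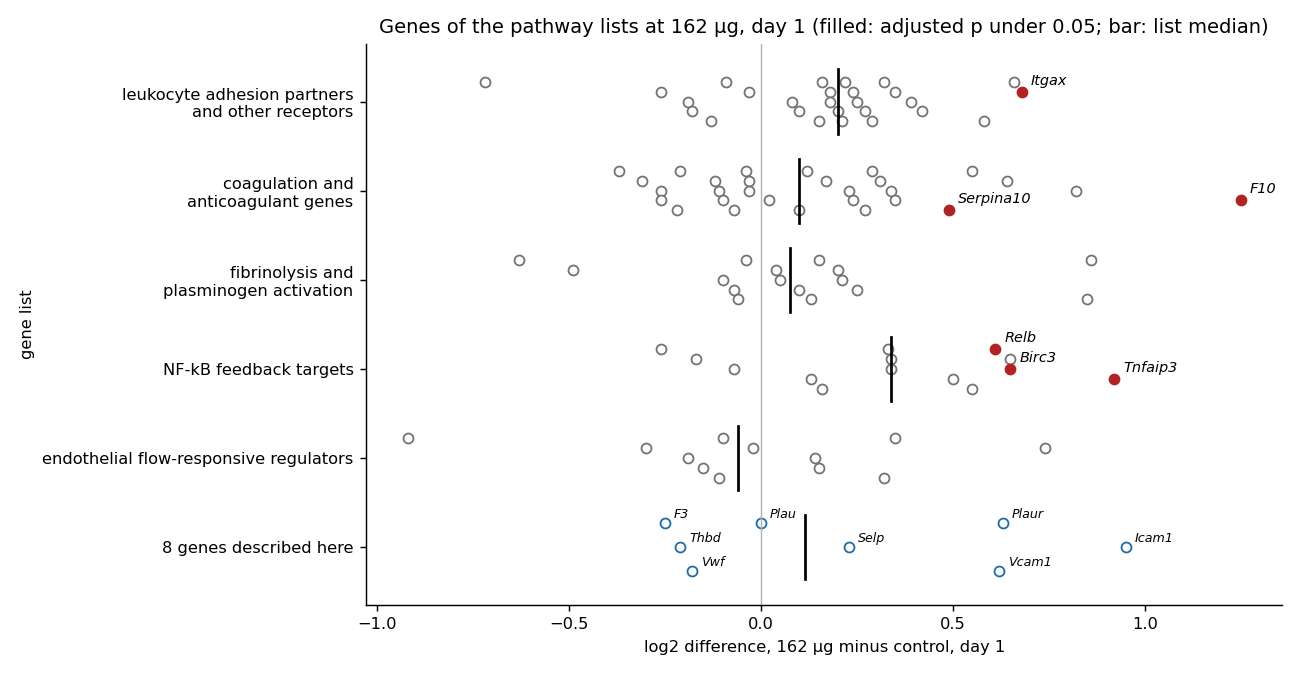
Difference between 162 µg and control at day 1 on the log2 scale (horizontal axis) for each tested gene of 5 pathway lists and for the 8 tested members (vertical axis, 1 row per list). Red filled points had an adjusted p under 0.05 and black bars are medians. The called genes are Itgax, F10, Serpina10, Relb, Birc3 and Tnfaip3, and no member is among them.

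Which transcripts ran most like each member over the mice was described by Pearson's r. The choice was made on r itself, the mice share the same arrays and doses, and part of the likeness comes from the muscle arrays, so no p is given and r over the 18 mice without one follows each value over all 29. Thbd ran with Tspan7 (0.94, then 0.88) and Kank3 (0.94, then 0.94). Plaur ran with Susd6 (0.92, then 0.91) and Tmem243 (0.91, then 0.83), and Icam1 with Nostrin (0.92, then 0.74) and Coro1c (0.92, then 0.79). Vcam1 ran with Samsn1 (0.87, then 0.69) and Psmb10 (0.87, then 0.65), Vwf with Lamp1 (0.86, then 0.77) and Ehd4 (0.85, then 0.69), and Selp with Emilin2 (0.82, then 0.69). F3 ran with Myl9 (0.76, then 0.70) and Fgfbp1 (0.76, then 0.69). Plau ran with Ndufaf5 (0.81, then 0.56) and Pianp (0.77, then 0.47). Leaving out the mice with a muscle array moved r by 0.08 or less for the partners of F3, Thbd and Plaur and by more for those of Selp, Icam1, Vcam1, Vwf and Plau.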

How the data were processed

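Per the file headers, Agilent Feature Extraction 11.0.1.1 read the scans. The deposited intensities are median foreground and background per spot in both dyes. The deposited LogRatio is the log10 ratio of processed Cy5 over Cy3 signals. The deposited value table holds log2 ratios that correlated with those computed here at r 0.986 to 0.997 on each array, so its scale and direction are the same, with column medians of -0.039 to -0.017 and a normalization not given in the sources used here. With R 4.3.3 and limma 3.58.1, background was removed by normexp (offset 50), log2 ratios were loess normalized within arrays, spots of a probe were averaged and the brightest probe of each name was kept. Arrays of 1 mouse were averaged. A gene was tested where, in some group, 3 or more mice had it well above background (Cy5) on all their arrays, in 1 model over 29 mice (21 residual, 2.9 prior degrees of freedom), two-sided, with adjustment within each comparison. On the arrays 48.6% to 62.2% of probes were well above background, the measure of depth here, and 0 spots were saturated. The fit was tested on simulated data.

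Probes were named by RefSeq accession through the GRCm38.p6 table (28026 of 55681 probes), used for names and promoter windows only. Muscle arrays lie above the largest gap in the skeletal muscle score. All members were named. From the pathway lists, up to 3 called genes per list and dose-against-control comparison were named, and per member the 2 genes of highest r (1 of those of Selp is not reported here). Members and lists were chosen with earlier results of these data known. In all, 18 alternatives (1 of them, control replicate 1 by its array without muscle, chosen after seeing the data) and 29 refits without 1 mouse were run.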

Additional observations from a re-analysis of the deposited data

Results flagged for a closer look

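In groups of 4 mice the highest or lowest mouse was set against the rest of its group by Dixon's ratio (gap over range, against its 95% critical value), in 40 combinations of 8 genes and 5 groups. Chance flags about 1 in 20 groups. The ratio was passed 3 times. Icam1 in day 1 control replicate 2 was the lowest, at 1.47, where the others lay from 2.32 to 2.35 (ratio 0.966). Icam1 in day 1 162 µg replicate 3, a mouse with a muscle array, was the lowest at 2.17, where the others lay from 3.28 to 3.46 (ratio 0.860). Plaur in day 28 162 µg replicate 3, a mouse without a muscle array, was the lowest at 0.20, where the others lay from 0.70 to 0.75 (ratio 0.913).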

How the results depend on the processing

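The count of members called was 0 in each of the 12 comparisons. For 162 µg at day 1 it was 1 with all probes of a gene averaged, 3 with slide as a block, 3 with scan session, 2 with the mouse as a random block (consensus correlation -0.034) and 3 with array quality weights, where Icam1 was 1.07, Vcam1 0.91 and Plaur 0.77. Over all 23255 genes those fits called 364, 899, 806, 728 and 2168 up, in that order. They called 43, 149, 128, 106 and 1115 down, where the reported fit called 349 up and 45 down. Leaving out single mice gave 0 to 3 members called, the 3 without 162 µg replicate 3 and 1 without control replicate 2. Without 162 µg replicate 3, every control mouse has a muscle array and no dosed mouse of that comparison has one. Array quality weights alone also called 1 member (Thbd) for 54 µg at day 28, 1 (Vcam1) and 1 (Plaur) for 162 µg against 54 µg at day 1 and day 28, and 3 (Icam1, Vcam1, Thbd) and 1 (Vcam1) for the difference between days at 54 and 162 µg. Of all 23255 genes the weights called 1180, 991, 2845, 2464 and 475 in these comparisons, in that order. The reported fit called 0, 1, 235, 0 and 6. The slide, session and random-block fits take the 36 arrays singly, and in the first pair the 7 mice with 2 arrays count as separate replicates. In the random-block fit, at a consensus correlation of -0.034, repeat arrays of a mouse also count nearly as separate replicates. The term and the change of unit thus cannot be told apart. The cause was not tested. Of 2580 member values under all alternatives 2458 kept within the residual SD and on the same side of the threshold, 99 moved further, 23 passed the threshold and 0 passed it in the opposite direction, while 176 uncalled values changed sign. No paired analysis was possible because replicate numbers only name mice. Over all genes, calls for 162 µg at day 1 numbered 394, against 38 with only the compared groups in the fit and 3283 with array quality weights, and 200 to 819 without single mice. For 54 µg at day 1 (12 calls) the range over alternatives was 0 to 81 and without single mice 2 to 10 (2 without 54 µg replicate 3), for 162 µg at day 28 (146) 88 to 585 and 65 to 128 (65 without control replicate 2), and for 162 against 54 µg at day 28 (235) 52 to 2845 and 101 to 408 (101 without 162 µg replicate 2, 408 without 54 µg replicate 4). Centring arrays on their median put the median of all genes between -0.316 and 0.233 over the 12 comparisons, and member values under it are read against that shift. Signal over background limits Sele (0 of 36 arrays) and Plau (27 of 36).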
